A study of Homo sapiens with 20 samples.

Results

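The genes described here are the ligands and receptors of axon guidance in OPM2 cells, a human multiple myeloma cell line, after treatment with 3 histone deacetylase inhibitors. They were chosen by gene symbol: protein-coding genes of the semaphorin, plexin, Eph receptor, ephrin, Robo, Slit, netrin and UNC5 families, together with the neuropilins NRP1 and NRP2 and the netrin receptors DCC and NEO1. The rule found 73 of the 78932 genes in the deposited table, 37 ligands and 36 receptors, namely 20 semaphorins, 11 plexins and neuropilins, 8 ephrins, 14 Eph receptors, 7 Slits and Robos, and 13 netrins and netrin receptors. UNC5CL, a death-domain protein of the NF-kB pathway that is not known as a netrin receptor, was kept because its symbol fits. It is counted here with the netrin receptors. UNC50, a Golgi protein unrelated to netrin signalling, was left out.

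The cells were exposed to panobinostat at 10 nM, romidepsin at 10 nM or ricolinostat at 100 nM for 2, 5 or 20 h, or to the solvent DMSO. Each of these 10 groups had 2 libraries of poly(A) RNA, which the design text calls independent biological replicates. Panobinostat is a hydroxamate that inhibits many histone deacetylases, romidepsin is a cyclic depsipeptide selective for class I enzymes, and ricolinostat is a hydroxamate selective for HDAC6. All groups were the same line in culture, so levels describe a pool of cells, and a change in the number of expressing cells cannot be told apart from a change in RNA per cell. The labels give the DMSO libraries no harvest time, so time in culture and inhibitor cannot be told apart in any comparison with DMSO. One label field gives ricolinostat as 10 nM where the titles, the treatment protocol and the design text give 100 nM.

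Axon guidance proteins steer growing neurites by attraction or repulsion. Semaphorins signal through plexins, for secreted class 3 semaphorins with neuropilins as co-receptors. Ephrins are membrane-bound ligands of Eph receptor tyrosine kinases, Slits are secreted ligands of Robo receptors, and netrins act through DCC, NEO1 and UNC5 receptors. Outside the nervous system these families take part in cell adhesion, migration, vessel growth and immune cell contacts, and some members, such as SEMA4D and PLXNC1, are well known on lymphocytes and other blood cells.

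The 20 libraries held 17264640 to 29088868 counts assigned to genes. Levels are given as CPM, counts scaled to library size with TMM factors, and changes as log2 changes ± standard error from a fit of edgeR's quasi-likelihood test across 20957 genes, with Benjamini-Hochberg adjusted p-values. "Rose" and "fell" mean an adjusted p below 0.05. Summed over 9 myeloma and plasma cell markers, all of them detected in every group, the level was 1560 CPM in both panobinostat libraries at 20 h, 2910 and 2930 CPM with romidepsin, 9150 and 9200 CPM with ricolinostat, and 10800 CPM in both DMSO libraries. FGFR3 and NSD2, at means of 3530 and 2510 CPM, made up most of the DMSO sum. CD38 alone was higher than DMSO with romidepsin at 20 h (mean 17.4 against 11.4 CPM), and NSD2 alone with ricolinostat (2790 against 2510 CPM). A list of 12 neuronal markers summed to 313 to 323 CPM with panobinostat at 20 h (1 gene at 0), 405 to 429 CPM with romidepsin (3 at 0), 116 to 119 CPM with ricolinostat and 66.7 to 67.7 CPM with DMSO (5 at 0). TUBB3, MAP2 and SYT1 made up most of these sums at 20 h, at means of 101, 91.4 and 109 CPM with panobinostat and 37.8, 188 and 181 CPM with romidepsin. SYT4, NEFL, NEFM, GAP43, DCX and ELAVL4 did not exceed a mean of 0.285 CPM in any group. Stromal markers stayed at or below 2.82 CPM in sum, and T cell, erythroid and epithelial markers at or below 1.1 CPM. Myeloid markers summed to at most 7.01 CPM, with panobinostat at 20 h. The part of these markers in the results below was not tested.

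Of the 73 members, 60 had enough counts to be tested. The 13 that did not were ROBO4, SLIT3, EFNA2, EFNB3, NTNG1, UNC5A, UNC5C, NRP1, NRP2, SEMA3C, SEMA3E, SEMA5B and SEMA6D. NRP1 and ROBO4 had 0 counts in all 20 libraries. NRP2, the other neuropilin, did not exceed 0.263 CPM in any library, so both co-receptors of the secreted semaphorins were at or near 0 throughout. In DMSO, 19 members had 0 counts in both libraries, and 8 of these were tested.

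After 20 h, most members above the detection floor had changed with either 10 nM inhibitor, and SEMA6C, SEMA6B, SEMA3F and EFNB2 were among the ligands that rose. The receptors split: DCC, NEO1, PLXNC1 and PLXNA2, all among the more abundant members in DMSO, fell, while UNC5B, the 3 tested Robos and most Eph receptors rose. With panobinostat at 20 h, 41 of the 60 tested members rose and 11 fell, where 40.8% of all genes tested rose and 32.3% fell. With romidepsin at 20 h, 43 rose and 10 fell, where 38.6% of all genes rose and 29.9% fell. With ricolinostat at 20 h, 7 rose and 5 fell, where 14.7% of all genes rose and 16.4% fell, or 10 and 4 with libraries scaled by total counts alone and 6 and 8 without DMSO replicate 2.

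Members at 3 counts or fewer over both DMSO libraries, called silent below, could pass the count filter only through groups in which they were higher. All 11 tested silent members rose at 20 h with both 10 nM inhibitors, a count that the filter favours. DESeq2 did not call the silent members PLXND1 and PLXNA4 at 20 h. Of all 1977 tested genes silent in DMSO, 90.7% rose with panobinostat at 20 h and 85.3% with romidepsin, so the members were near that share. Among the other 49 tested members, 30 rose and 11 fell with panobinostat at 20 h, where 35.6% of all genes above the same floor rose and 35.7% fell. With romidepsin at 20 h, 32 of these 49 rose and 10 fell, where 33.8% and 33.0% of genes above the floor did so. Their median log2 change was 1.44 with panobinostat and 1.60 with romidepsin. These 49 still include members, such as EPHA3 and SEMA3F, below the minimum count of 10 in each DMSO library. Such members also passed the filter only through treated groups, so it favours their rises too, in these counts and medians.

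**Figure D1:**
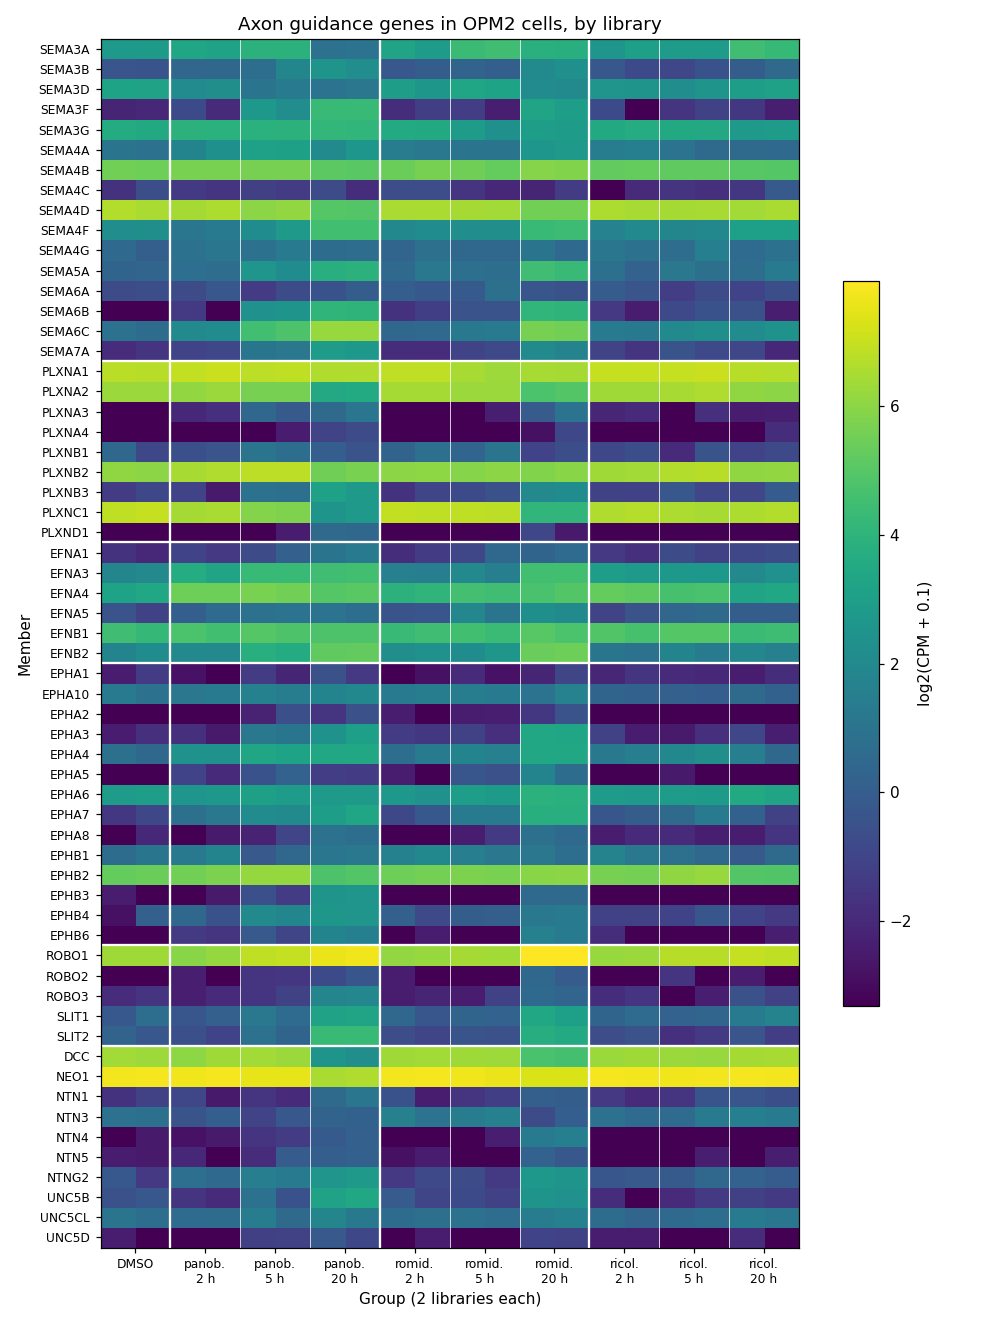
Level of the 60 tested members (rows, ordered by family with white lines between families) in each of the 20 libraries (columns, 2 for each group), as log2(CPM + 0.1) on the colour scale. Dark cells in DMSO turn lighter at 20 h with panobinostat and romidepsin for SEMA6B, SEMA3F and EPHA3, and light cells darken for PLXNC1, PLXNA2 and DCC.

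At 2 and 5 h the counts of members called differed between the inhibitors, as did the shares of all genes, and at 2 h the members called in either direction were near that share with each inhibitor. Counted in either direction, romidepsin had 4 members called at 2 h (all genes 8.16%), 14 at 5 h (29.6%) and 53 at 20 h (68.5%), whereas panobinostat had 25 at 2 h (38.9%), 40 at 5 h (56.6%) and 52 at 20 h (73.1%). Ricolinostat had 16 at 2 h (31.5%), 22 at 5 h (34.1%) and 12 at 20 h (31.1%). With panobinostat, 19 members rose and 6 fell at 2 h (all genes 20.8% and 18.1%), and 34 rose and 6 fell at 5 h (all genes 30.7% and 25.9%). Without DMSO replicate 2, 11 rose and 6 fell at 2 h, and without panobinostat 2 h replicate 2, 13 and 8 did. With romidepsin, 3 rose and 1 fell at 2 h (all genes 3.55% and 4.62%), and 10 rose and 4 fell at 5 h (all genes 13.0% and 16.5%). With libraries scaled by total counts alone, these splits were 6 and 0 at 2 h and 13 and 2 at 5 h. The romidepsin counts at 2 h changed with single libraries: without DMSO replicate 1, 1 member was called, and without DMSO replicate 2 or romidepsin replicate 1, 2 were. At 5 h, 2 members instead of 4 fell without DMSO replicate 1 or romidepsin 5 h replicate 2. With ricolinostat, 10 rose and 6 fell at 2 h (all genes 16.9% and 14.5%), and 16 rose and 6 fell at 5 h (all genes 18.8% and 15.3%), or 14 and 10 at 5 h with DESeq2-type size factors. The 2 h split was 4 and 8 without ricolinostat 2 h replicate 1, 6 and 8 without its replicate 2, 6 and 5 without DMSO replicate 1 and 5 and 6 without DMSO replicate 2, so which direction held more members rested on single libraries. It was 8 and 9 without panobinostat 2 h replicate 2 or ricolinostat 5 h replicate 1. The 5 h split was 14 and 11 without panobinostat 2 h replicate 2, and 12 and 10 without romidepsin 20 h replicate 1 or either ricolinostat 2 h library.

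A change of at least 2-fold narrows these counts. At 20 h, 37 members rose and 7 fell by that much with panobinostat (all genes 29.5% and 17.8%), and 38 rose and 6 fell with romidepsin (all genes 26.9% and 13.5%). At 5 h, 28 rose and 3 fell by at least 2-fold with panobinostat (all genes 17.6% and 8.67%), and 8 rose and 0 fell with romidepsin (all genes 4.51% and 0.649%). At 2 h, 12 rose and 4 fell by at least 2-fold with panobinostat (all genes 6.09% and 4.11%), and 1 rose and 0 fell with romidepsin (all genes 0.487% and 0.177%), or 0 and 0 without DMSO replicate 1. The 4 with panobinostat were 2 without its 2 h replicate 1, and the 0 with romidepsin at 5 h was 1 without its 5 h replicate 1. With ricolinostat, 4 rose and 2 fell by at least 2-fold at 2 h (all genes 2.45% and 2.73%), 7 and 3 at 5 h (3.45% and 2.30%), and 4 and 0 at 20 h (4.70% and 0.582%). The 2 h split was 1 and 3 without DMSO replicate 1 or ricolinostat 2 h replicate 1, 2 and 2 with no count filter, and 3 and 3 without ricolinostat 2 h replicate 2, panobinostat 2 h replicate 2, romidepsin 20 h replicate 1 or ricolinostat 5 h replicate 1. The 5 h split was 7 and 6 without ricolinostat 5 h replicate 2, and the 20 h split 4 and 2 without DMSO replicate 2, 4 and 1 without DMSO replicate 1 and 3 and 1 without ricolinostat 20 h replicate 1. The median log2 change over the 60 members at 20 h was 2.72 with panobinostat and 2.65 with romidepsin, or 2.58 and 2.13 with members at 0 counts in DMSO placed at their lower bound. Over all genes tested the medians were 0.25 and 0.22. The 2-fold counts and these medians include silent members, whose rises the filter favours, and the shares of all genes include silent genes.

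**Figure D2:**
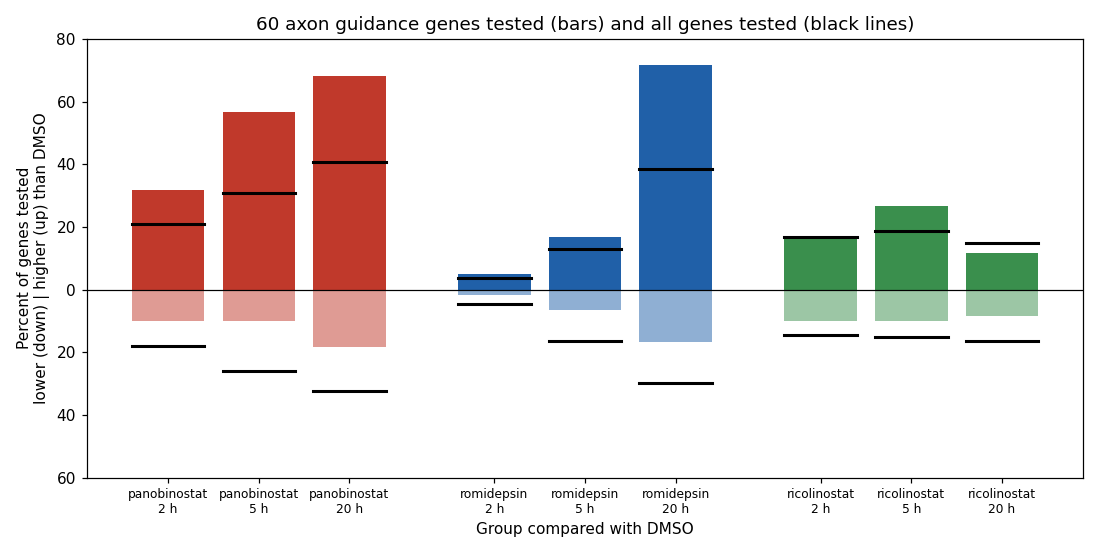
Percent of genes that rose (bars upward) or fell (bars downward) against DMSO (y axis) for each inhibitor and time (x axis), for the 60 tested members (bars) and for all 20957 genes tested (black lines). The members' share that rose exceeds that of all genes by the most at 5 h and 20 h with panobinostat and at 20 h with romidepsin, and silent members are included in both.

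Promoters of 5 members that changed at 20 h are printed to show what kind of sequence lies at their starts: SEMA6C, SEMA3F and EFNB2 rose with both 10 nM inhibitors, and DCC and PLXNA2 fell with both. Each run covers the 250 bases before and 50 after the RefSeq transcription start, 5′ to 3′ on the gene's own strand. Capitals mark the GC box, GGGCGG or its reverse complement CCGCCC, with overlapping matches counted separately.
SEMA6C promoter, GRCh38.p14 chr1:151146582-151146881, minus strand: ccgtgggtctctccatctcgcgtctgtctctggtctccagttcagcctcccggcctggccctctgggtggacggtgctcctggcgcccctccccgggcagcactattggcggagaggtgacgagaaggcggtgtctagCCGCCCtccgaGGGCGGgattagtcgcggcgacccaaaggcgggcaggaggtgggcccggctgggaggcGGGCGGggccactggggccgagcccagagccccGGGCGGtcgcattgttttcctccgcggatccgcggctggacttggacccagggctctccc
SEMA3F promoter, GRCh38.p14 chr3:50154808-50155107, plus strand: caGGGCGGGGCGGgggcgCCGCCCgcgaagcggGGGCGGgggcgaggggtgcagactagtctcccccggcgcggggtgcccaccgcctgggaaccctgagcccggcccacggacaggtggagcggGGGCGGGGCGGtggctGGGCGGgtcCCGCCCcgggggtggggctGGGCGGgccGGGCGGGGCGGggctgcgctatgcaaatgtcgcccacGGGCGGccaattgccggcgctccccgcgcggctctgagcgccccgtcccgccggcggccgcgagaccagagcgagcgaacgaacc
EFNB2 promoter, GRCh38.p14 chr13:106535613-106535912, minus strand: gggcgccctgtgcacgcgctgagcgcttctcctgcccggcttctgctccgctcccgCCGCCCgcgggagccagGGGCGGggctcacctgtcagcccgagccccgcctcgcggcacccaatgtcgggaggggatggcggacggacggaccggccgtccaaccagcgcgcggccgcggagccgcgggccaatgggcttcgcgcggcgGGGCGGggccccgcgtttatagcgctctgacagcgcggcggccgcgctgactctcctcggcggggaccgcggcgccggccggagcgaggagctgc
DCC promoter, GRCh38.p14 chr18:52339947-52340246, plus strand: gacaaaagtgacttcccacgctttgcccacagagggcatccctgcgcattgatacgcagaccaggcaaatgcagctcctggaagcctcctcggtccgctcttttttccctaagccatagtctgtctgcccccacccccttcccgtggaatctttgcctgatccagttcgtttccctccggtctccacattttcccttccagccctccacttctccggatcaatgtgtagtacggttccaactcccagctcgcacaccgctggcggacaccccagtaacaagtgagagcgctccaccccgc
PLXNA2 promoter, GRCh38.p14 chr1:208244335-208244634, minus strand: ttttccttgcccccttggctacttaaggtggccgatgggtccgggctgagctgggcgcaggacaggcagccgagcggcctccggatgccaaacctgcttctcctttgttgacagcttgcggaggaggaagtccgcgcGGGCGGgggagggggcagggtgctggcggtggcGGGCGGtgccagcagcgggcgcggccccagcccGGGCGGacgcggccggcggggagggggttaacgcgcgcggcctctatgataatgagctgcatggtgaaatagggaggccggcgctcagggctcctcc

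The SEMA3F promoter holds 12 GC boxes, that of SEMA6C 4, those of EFNB2 and PLXNA2 3 each, and that of DCC 0. RefSeq promoters were at hand for 62 of the 73 members, and 47 of these (75.8%) hold at least 1 GC box, against 56.3% of 22199 protein-coding promoters and 45.0% of all 35116. The RefSeq start lay within 500 bases of the annotated gene start for 46 members, and 35 of them (76.1%) hold the motif. Of these 46, the motif is present in 24 of 27 that rose at 20 h with both 10 nM inhibitors and in 2 of 4 that fell with both. The RefSeq starts of PLXNC1, PLXNB2, PLXNA1 and SEMA4D, which also fell with both, lay 2474 to 113896 bases from the annotated gene start. With so few that fell, the difference between these shares was not tested. Of all 62, a GC box is present in 27 of 34 members (79.4%) that rose at 20 h with both 10 nM inhibitors, in 6 of 8 (75.0%) that fell with both, in all 9 of the other tested members and in 5 of 11 (45.5%) that were not tested. The median GC content was 67.5% in the 34 that rose, 62.4% in the 8 that fell and 71.0% in the other 9, against 62.3% in protein-coding promoters. A match describes the letters in this window and does not show binding.

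Among the semaphorins, 16 of 20 were tested, and 9 rose and 4 fell with panobinostat at 20 h, while 10 rose and 3 fell with romidepsin. Of all genes tested, 40.8% rose and 32.3% fell with panobinostat, and 38.6% rose and 29.9% fell with romidepsin, and 1 of the semaphorins that rose with each, SEMA6B, was silent in DMSO. SEMA6C, a transmembrane semaphorin on chromosome 1 (GRCh38 chr1:151131685-151146664), had 74.0 and 74.5 CPM with panobinostat at 20 h and 50.2 and 47.1 CPM with romidepsin, against 1.74 and 1.49 CPM with DMSO. All 4 treated libraries lay far above both DMSO libraries. The log2 change was 5.53 ± 0.182 with panobinostat (edgeR adjusted p = 8.7e-60) and 4.92 ± 0.183 with romidepsin (adjusted p = 4.0e-54). SEMA6C had already reached 22.9 and 28.0 CPM with panobinostat at 5 h, when both romidepsin libraries, at 2.25 and 2.36 CPM, lay just above DMSO (adjusted p = 0.075).

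SEMA6B, a related transmembrane semaphorin that binds A-type plexins, had 16.6 and 16.1 CPM with panobinostat at 20 h and 16.8 and 15.8 CPM with romidepsin, against 0 counts in both DMSO libraries. Set against a floor of 3 counts over both DMSO libraries, it was at least 274-fold higher with panobinostat (edgeR adjusted p = 5.2e-32) and at least 273-fold higher with romidepsin (adjusted p = 8.7e-32). It was the one member that rose with all 3 inhibitors at all 3 times. At 2 h no library exceeded 0.333 CPM, however, and those early calls each rested on single libraries: without panobinostat 2 h replicate 1 the fitted change was 0.00 (adjusted p = 1.0), without ricolinostat 2 h replicate 1 the adjusted p was 0.17, and without DMSO replicate 2 the adjusted p with romidepsin at 2 h was 0.071.

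SEMA3F, a secreted semaphorin whose known co-receptor is NRP2, had 19.1 and 19.4 CPM with panobinostat at 20 h and 9.58 and 8.01 CPM with romidepsin, against 0.127 and 0.149 CPM with DMSO. The groups did not overlap. Its log2 change was 7.07 ± 0.679 with panobinostat (edgeR adjusted p = 1.9e-24) and 5.93 ± 0.682 with romidepsin (adjusted p = 1.4e-19). It shares its locus with SEMA3F-AS1 on the other strand. The strand setting of the counting is not given in the sources used here, so reads of such pairs cannot be told apart, which holds for 39 members.

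SEMA7A, the GPI-anchored ligand of PLXNC1, had 7.36 and 6.4 CPM with panobinostat at 20 h and 4.09 and 3.15 CPM with romidepsin, against 0.169 and 0.224 CPM with DMSO. SEMA5A, a transmembrane semaphorin with thrombospondin repeats, had 13.9 and 15.3 CPM with panobinostat at 20 h and 22.6 and 20.1 CPM with romidepsin, against 1.14 and 1.19 CPM with DMSO. Both rose with both inhibitors, SEMA7A by a log2 of 5.08 ± 0.537 and 4.16 ± 0.543 (edgeR adjusted p = 1.8e-20 and 8.2e-15), SEMA5A by 3.64 ± 0.25 and 4.19 ± 0.249 (adjusted p = 1.5e-28 and 3.2e-33), with panobinostat given first.

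The abundant semaphorins went other ways. SEMA4D, also called CD100, a ligand of PLXNB1 and CD72 on lymphocytes, had 31.3 and 30.2 CPM with panobinostat at 20 h and 46.3 and 46.4 CPM with romidepsin, against 101 and 92.3 CPM with DMSO. It fell by 1.65 ± 0.0623 on the log2 scale with panobinostat (edgeR adjusted p = 4.4e-45) and by 1.06 ± 0.0603 with romidepsin (adjusted p = 7.1e-31). The SEMA4D receptor PLXNB1 had 0.939 and 0.631 CPM with panobinostat at 20 h, against 1.31 and 0.447 CPM with DMSO, and the groups overlapped (adjusted p = 0.78).

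SEMA3G, a secreted semaphorin that also signals through NRP2, had 17.8 and 17.0 CPM with panobinostat at 20 h and 7.98 and 7.23 CPM with romidepsin, against 12.1 and 11.6 CPM with DMSO. It was higher than DMSO with panobinostat (0.55 ± 0.126, edgeR adjusted p = 5.4e-05) and lower with romidepsin (-0.64 ± 0.139, adjusted p = 2.6e-05). SEMA4B, a transmembrane semaphorin, had 34.2 and 33.0 CPM with panobinostat at 20 h and 59.6 and 56.9 CPM with romidepsin, against 46.5 and 43.8 CPM with DMSO. It fell with panobinostat (-0.43 ± 0.0731, adjusted p = 1.7e-07) and rose with romidepsin (0.37 ± 0.0706, adjusted p = 2.7e-06), and the fall was not called when libraries were scaled by total counts alone (-0.12, adjusted p = 0.11).

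SEMA3A, SEMA3D and SEMA4F were chosen after their values were seen. SEMA3A, the classic repellent of growth cones, had 1.72 and 1.86 CPM with panobinostat at 20 h, 14.3 and 13.8 CPM with romidepsin and 22.6 and 18.7 CPM with ricolinostat, against 6.82 and 6.93 CPM with DMSO. The panobinostat libraries lay below DMSO and the other 4 above it. SEMA3D, another secreted semaphorin, fell with both 10 nM inhibitors at 20 h, to 1.84 and 2.13 CPM with panobinostat and 4.22 and 3.93 CPM with romidepsin, against 9.19 and 8.83 CPM with DMSO. SEMA4F, a transmembrane semaphorin, rose to 23.2 and 23.0 CPM with panobinostat and 20.0 and 21.4 CPM with romidepsin, against 4.53 and 4.85 CPM with DMSO.

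All 6 tested ephrins rose at 20 h with both panobinostat and romidepsin (all genes 40.8% and 38.6%), and none of the 6 was silent in DMSO. EFNB2, the transmembrane ephrin known for marking arteries and as a ligand of EPHB4, had 36.9 and 38.4 CPM with panobinostat at 20 h and 42.1 and 44.4 CPM with romidepsin, against 3.35 and 4.36 CPM with DMSO. The log2 change was 3.28 ± 0.149 with panobinostat (edgeR adjusted p = 1.2e-40) and 3.48 ± 0.149 with romidepsin (adjusted p = 1.5e-42). EFNA3, a GPI-anchored ephrin, had 22.6 and 23.3 CPM with panobinostat at 20 h and 23.4 CPM in both romidepsin libraries, against 3.51 and 3.91 CPM with DMSO. Its log2 change was 2.62 ± 0.158 and 2.65 ± 0.159 with panobinostat and romidepsin, both with adjusted p = 1.3e-30.

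EFNA4, its neighbour on chromosome 1, had 44.3 and 44.4 CPM with panobinostat at 2 h, 51.3 and 47.3 CPM at 5 h and 31.4 and 33.0 CPM at 20 h, against 9.1 and 10.7 CPM with DMSO. With ricolinostat it stood at 39.0 and 35.2 CPM at 2 h, 25.2 and 26.3 CPM at 5 h and 9.54 and 10.5 CPM at 20 h, so that the last pair overlapped DMSO. With romidepsin it was 15.1 and 16.6 CPM at 2 h, 23.9 and 22.6 CPM at 5 h and 26.6 and 30.2 CPM at 20 h. The log2 change at 2 h was 2.16 ± 0.0992 with panobinostat (edgeR adjusted p = 7.2e-38), 0.68 ± 0.108 with romidepsin (adjusted p = 8.4e-07) and 1.90 ± 0.1 with ricolinostat (adjusted p = 1.2e-32). EFNA3 and EFNA4 both overlap the readthrough gene AL691442.1 on the same strand, so counts can be shared or lost among the 3.

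EFNA5, a GPI-anchored ephrin, had 1.84 and 1.59 CPM with panobinostat at 20 h and 4.77 and 4.12 CPM with romidepsin, against 0.635 and 0.373 CPM with DMSO. EFNA1, the ligand of EPHA2, had 1.92 and 2.41 CPM with panobinostat at 20 h and 1.14 and 1.45 CPM with romidepsin, against 0.212 and 0.149 CPM with DMSO. Neither pair of treated libraries overlapped DMSO for either gene. EFNB1, a transmembrane ephrin, had 27.6 and 28.1 CPM with panobinostat at 20 h and 32.2 and 27.0 CPM with romidepsin, against 22.7 and 18.3 CPM with DMSO. Its log2 change was 0.45 ± 0.0967 with panobinostat (edgeR adjusted p = 2.7e-05) and 0.53 ± 0.0974 with romidepsin (adjusted p = 1.3e-06), and without DMSO replicate 2 the panobinostat rise was 0.22 and was not called (adjusted p = 0.091).

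**Figure D3:**
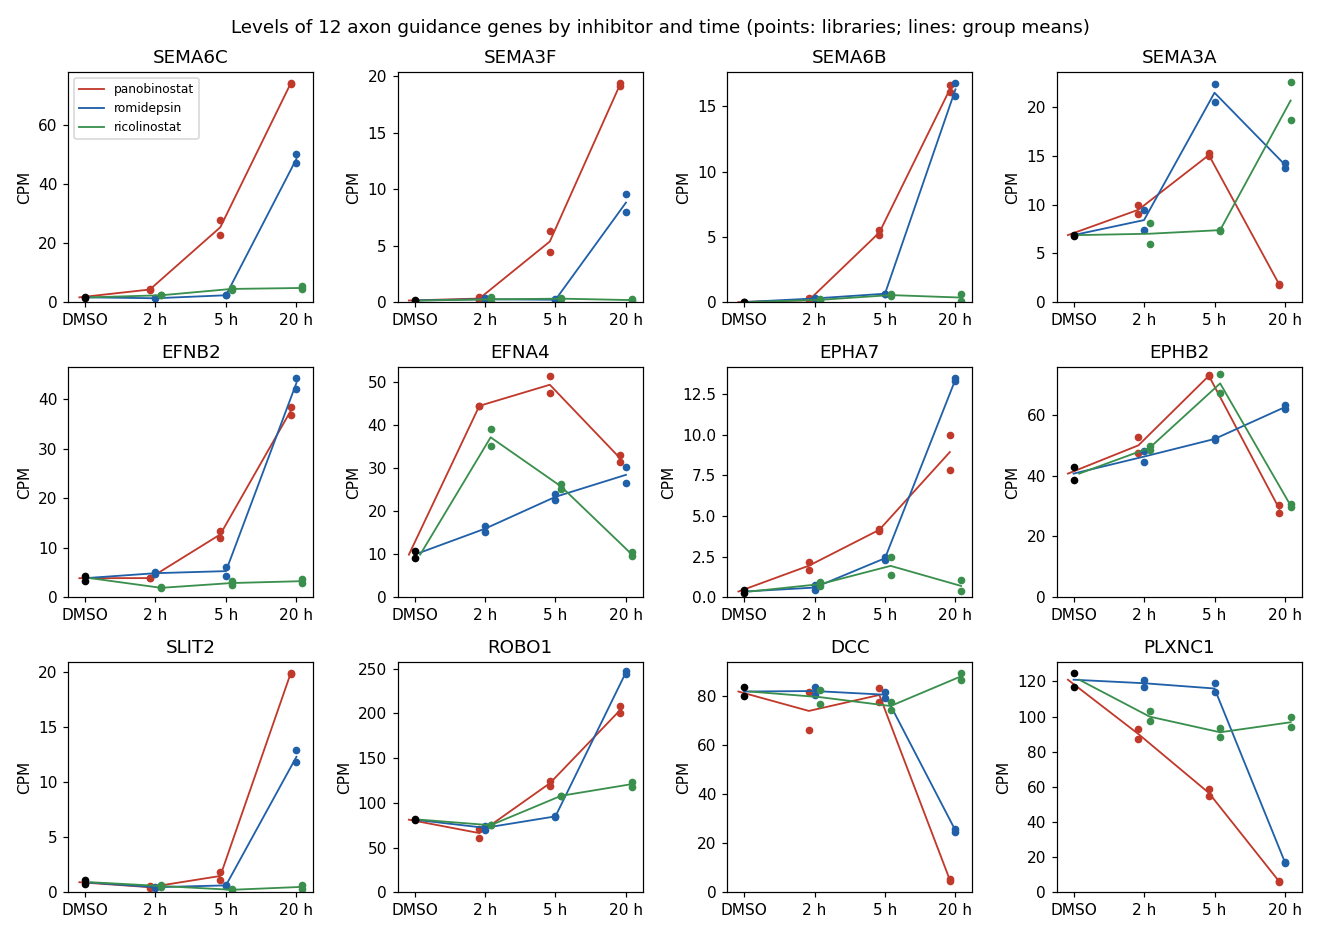
CPM of 12 members (y axis, from 0) by time in h (x axis, DMSO at the low end, steps not to scale), with a point for each library and a line through the group means of each inhibitor. SEMA6C, EFNB2 and PLXNC1 have left the DMSO level at 5 h with panobinostat more than with romidepsin, and at 20 h both inhibitors lie on the same side of DMSO for these 3.

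SLIT2, a secreted repellent, had 19.9 and 19.8 CPM with panobinostat at 20 h and 12.9 and 11.8 CPM with romidepsin, against 1.1 and 0.745 CPM with DMSO. The log2 change was 4.43 ± 0.278 (edgeR adjusted p = 1.5e-31) with panobinostat and 3.74 ± 0.281 (adjusted p = 1.1e-25) with romidepsin. SLIT1, also a Robo ligand, had 8.8 and 9.56 CPM with panobinostat at 20 h, 10.3 and 8.27 CPM with romidepsin and 2.35 and 3.17 CPM with ricolinostat, against 0.762 and 1.57 CPM with DMSO. It lay above DMSO in all 6 treated libraries at 20 h. The ricolinostat rise (1.22 ± 0.307, adjusted p = 0.00063) was not called without DMSO replicate 1 (0.81, adjusted p = 0.084), and SLIT1 overlaps the readthrough gene ARHGAP19-SLIT1, so its counts are uncertain.

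NTNG2, a GPI-anchored netrin-G known from synapses, had 5.79 and 6.7 CPM with panobinostat at 20 h and 6.37 and 5.67 CPM with romidepsin, against 0.762 and 0.261 CPM with DMSO. It rose by a log2 of 3.63 ± 0.387 with panobinostat (edgeR adjusted p = 5.7e-17) and 3.58 ± 0.389 with romidepsin (adjusted p = 2.2e-16). NTN4, a laminin-related netrin, had 0.822 and 0.992 CPM with panobinostat at 20 h and 2.45 and 2.82 CPM with romidepsin, against 0 and 0.0745 CPM with DMSO. With 2 counts in DMSO its ratio to DMSO is loosely bounded, at 23.2 (95% counting interval 6.11 to 196) with panobinostat and 66.7 (18.1 to 557) with romidepsin. NTN1, the founding netrin of the family, had 1.41 and 2.04 CPM with panobinostat at 20 h and 0.971 and 0.89 CPM with romidepsin, against 0.212 and 0.373 CPM with DMSO. It rose with panobinostat (2.53 ± 0.637, adjusted p = 0.00014). Its romidepsin rise (1.64 ± 0.661, adjusted p = 0.019) was not called without DMSO replicate 1 (1.26, adjusted p = 0.15), romidepsin 20 h replicate 1 (1.49, adjusted p = 0.076) or romidepsin 20 h replicate 2 (1.66, adjusted p = 0.051).

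The netrin receptors went in both directions. DCC, the attractive netrin receptor and a gene first known from losses in colorectal cancer, had 5.56 and 4.66 CPM with panobinostat at 20 h and 26.0 and 24.4 CPM with romidepsin, against 83.6 and 80.0 CPM with DMSO. All 4 of these treated libraries lay below DMSO, and those at 5 h, at 83.3 and 77.6 CPM with panobinostat and 81.6 and 79.3 CPM with romidepsin, overlapped it. At 20 h DCC fell by 4.01 ± 0.103 on the log2 scale with panobinostat (edgeR adjusted p = 2.6e-60) and by 1.70 ± 0.0717 with romidepsin (adjusted p = 8.5e-39). With ricolinostat at 20 h it had 86.5 and 89.5 CPM (adjusted p = 0.22).

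NEO1, neogenin, a receptor for netrins and RGM proteins, had 91.5 and 96.3 CPM with panobinostat at 20 h, 161 CPM in both romidepsin libraries and 222 and 219 CPM with ricolinostat, against 219 and 225 CPM with DMSO. It fell by 1.24 ± 0.045 with panobinostat (edgeR adjusted p = 2.9e-46) and by 0.46 ± 0.0439 with romidepsin (adjusted p = 4.8e-17). UNC5B, a receptor for netrin repulsion and a death-domain protein, had 9.0 and 10.7 CPM with panobinostat at 20 h and 5.57 and 5.12 CPM with romidepsin, against 0.593 and 0.745 CPM with DMSO. UNC5B rose by a log2 of 3.86 ± 0.367 (adjusted p = 1.1e-18) and 2.98 ± 0.374 (adjusted p = 1.0e-12), panobinostat first. Over the 10 tested netrins and receptors, 7 rose and 2 fell with panobinostat at 20 h (all genes 40.8% and 32.3%), and 7 rose and 3 fell with romidepsin (all genes 38.6% and 29.9%). NTN4 and UNC5D, both silent in DMSO, are among the 7 in each case. So is UNC5CL, which is not known as a netrin receptor.

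All 5 tested Slits and Robos, of which ROBO2 was silent in DMSO, rose at 20 h with both panobinostat and romidepsin (all genes 40.8% and 38.6%). ROBO1, the main Slit receptor of these cells by CPM, had 200 and 208 CPM with panobinostat at 20 h, 244 and 248 CPM with romidepsin and 123 and 118 CPM with ricolinostat, against 80.5 and 82.1 CPM with DMSO. It lay above DMSO in all 6 libraries. Its log2 change was 1.33 ± 0.051 with panobinostat (edgeR adjusted p = 3.7e-44), 1.60 ± 0.0509 with romidepsin (adjusted p = 1.2e-50) and 0.57 ± 0.0527 with ricolinostat (adjusted p = 1.8e-16). At 2 h the order was the other way with panobinostat, at 61.2 and 71.3 CPM, a fall of 0.29 ± 0.0549 (adjusted p = 3.9e-06).

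ROBO3, known for gating midline crossing, had 3.4 and 3.64 CPM with panobinostat at 20 h and 1.35 and 1.19 CPM with romidepsin, against 0.169 and 0.224 CPM with DMSO. ROBO2, a Slit receptor of neurons and kidney, had 0.47 and 0.722 CPM with panobinostat at 20 h and 1.27 and 0.853 CPM with romidepsin, against 0 counts with DMSO. ROBO2 was thus at least 10.3-fold higher with panobinostat (edgeR adjusted p = 0.00018) and at least 17.6-fold higher with romidepsin (adjusted p = 1.4e-05), against a floor of 3 counts over both DMSO libraries.

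Of 14 tested Eph receptors, 10 rose and 1 fell with panobinostat at 20 h (all genes 40.8% and 32.3%), and 11 rose and 0 fell with romidepsin (all genes 38.6% and 29.9%). The silent EPHA2, EPHA5, EPHB3 and EPHB6 are among these, and without them 6 of 10 rose with panobinostat and 7 of 10 with romidepsin. Of all genes above the silent level, 35.6% and 33.8% rose. EPHA7, an Eph receptor with roles in mouse cortical development, had 7.83 and 10.0 CPM with panobinostat at 20 h and 13.3 and 13.5 CPM with romidepsin, against 0.254 and 0.447 CPM with DMSO. EPHA3, an Eph receptor found on some leukaemia cells, had 5.28 and 8.27 CPM with panobinostat at 20 h and 10.4 and 10.2 CPM with romidepsin, against 0.0847 and 0.186 CPM with DMSO. All 4 of these treated libraries lay far above the DMSO libraries for both genes, whereas the ricolinostat libraries at 20 h overlapped DMSO. EPHA7 rose by a log2 of 4.63 ± 0.413 and 5.21 ± 0.412 (edgeR adjusted p = 3.7e-25 and 3.7e-29), and EPHA3 by 5.57 ± 0.637 and 6.16 ± 0.636 (adjusted p = 7.8e-22 and 3.9e-25), with panobinostat given first.

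Several Eph receptors started from silence. EPHB3, an Eph receptor of the intestinal crypt, had 5.67 and 5.8 CPM with panobinostat at 20 h and 1.35 and 1.41 CPM with romidepsin, against 0.0847 and 0 CPM with DMSO. EPHB6, which lacks kinase activity, had 3.33 and 2.86 CPM with panobinostat at 20 h and 2.87 and 2.3 CPM with romidepsin, against 0 counts with DMSO. EPHA5, a neuronal Eph receptor, had 0.313 and 0.301 CPM with panobinostat at 20 h and 3.25 and 1.48 CPM with romidepsin, against 0 counts with DMSO. All 3 were low in absolute terms. EPHB6 was at least 51.5-fold higher with panobinostat and at least 43.2-fold higher with romidepsin, EPHA5 at least 5.15-fold and at least 38.8-fold, and the EPHB3 ratios were 145 (95% counting interval 39.8 to 1200) and 34.9 (9.3 to 293).

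EPHB2, a receptor of B-type ephrins and the Eph receptor with the most CPM in DMSO, had 27.8 and 30.4 CPM with panobinostat at 20 h, 62.1 and 63.2 CPM with romidepsin and 30.7 and 29.7 CPM with ricolinostat, against 38.6 and 42.8 CPM with DMSO. The romidepsin libraries lay above DMSO and the other 4 below it. Its log2 change was -0.48 ± 0.072 with panobinostat (edgeR adjusted p = 3.4e-09), 0.62 ± 0.0682 with romidepsin (adjusted p = 5.0e-14) and -0.43 ± 0.0739 with ricolinostat (adjusted p = 7.6e-07). At 5 h EPHB2 was above DMSO with all 3, at 72.8 and 73.0 CPM with panobinostat, 52.4 and 51.8 CPM with romidepsin and 67.4 and 73.5 CPM with ricolinostat. EPHB4, a receptor of EFNB2 chosen after its values were seen, had 6.07 and 5.77 CPM with panobinostat at 20 h and 2.19 and 2.41 CPM with romidepsin, against 0.0423 and 1.01 CPM with DMSO, where the 2 libraries were far apart.

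Of 9 tested plexins, 4 rose and 4 fell with each 10 nM inhibitor at 20 h (all genes 40.8% and 32.3% with panobinostat, 38.6% and 29.9% with romidepsin), and 3 of the 4 that rose, PLXNA3, PLXNA4 and PLXND1, were silent in DMSO. PLXNC1, the receptor of SEMA7A and of viral semaphorins, had 5.67 and 6.52 CPM with panobinostat at 20 h and 17.3 and 16.9 CPM with romidepsin, against 117 and 125 CPM with DMSO. No treated library at 20 h with these inhibitors came near the DMSO level. It fell by 4.30 ± 0.0883 on the log2 scale with panobinostat (edgeR adjusted p = 2.2e-73) and by 2.82 ± 0.0694 with romidepsin (adjusted p = 5.0e-62). With panobinostat PLXNC1 was already down at 2 h, at 87.5 and 92.8 CPM, and at 5 h, at 58.7 and 54.6 CPM. With ricolinostat at 20 h it had 93.9 and 99.7 CPM, a fall of 0.32 ± 0.0558 (adjusted p = 1.1e-06), and CEP83 overlaps it on the other strand.

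PLXNA2, a receptor of class 6 semaphorins known from mouse, had 11.1 and 11.7 CPM with panobinostat at 20 h and 27.0 and 31.0 CPM with romidepsin, against 77.4 and 76.2 CPM with DMSO. It fell by 2.75 ± 0.0772 with panobinostat (edgeR adjusted p = 1.4e-57) and by 1.40 ± 0.0666 with romidepsin (adjusted p = 5.0e-37). PLXNA1, a co-receptor of class 3 semaphorins, had 96.2 and 97.3 CPM with panobinostat at 20 h and 88.7 and 86.4 CPM with romidepsin, against 111 and 108 CPM with DMSO. The PLXNA1 fall with panobinostat (-0.18 ± 0.053, adjusted p = 0.0017) became a rise of 0.13 (adjusted p = 0.024) when libraries were scaled by total counts alone, and with romidepsin (-0.32 ± 0.0539) it was then not called (-0.09, adjusted p = 0.12). PLXNB2, a broadly expressed receptor of class 4 semaphorins, had 45.7 and 51.9 CPM with panobinostat at 20 h and 55.9 and 61.3 CPM with romidepsin, against 67.5 and 62.8 CPM with DMSO. With that scaling its fall with panobinostat (-0.41 ± 0.0619, adjusted p = 4.4e-09) was not called (-0.11, adjusted p = 0.10), and its value with romidepsin (-0.15 ± 0.0617, adjusted p = 0.025) was 0.09 (adjusted p = 0.20). The romidepsin fall of PLXNB2 was also not called without DMSO replicate 1 (adjusted p = 0.097) or romidepsin 20 h replicate 1 (adjusted p = 0.063).

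The plexins that rose were low. PLXNB3, a receptor of SEMA5A, had 8.57 and 6.64 CPM with panobinostat at 20 h and 3.84 and 4.41 CPM with romidepsin, against 0.296 and 0.447 CPM with DMSO. PLXNA3, a receptor of SEMA3F known from mouse, had 1.37 and 2.07 CPM with panobinostat at 20 h and 0.844 and 1.89 CPM with romidepsin, against 0 counts with DMSO. PLXND1, the SEMA3E receptor of vessels, had 1.41 and 1.29 CPM with panobinostat at 20 h and 0.422 and 0.0742 CPM with romidepsin, against 0 counts with DMSO. PLXND1 was at least 22.6-fold higher with panobinostat (edgeR adjusted p = 5.7e-06). Its romidepsin rise (adjusted p = 0.0085) was not called without romidepsin 20 h replicate 1 (adjusted p = 0.18) or without DMSO replicate 1 (0.052) or 2 (0.063), and DESeq2 called neither rise of PLXND1 (adjusted p = 0.43 with panobinostat and 0.55 with romidepsin).

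Per kb of annotated exons, which allows levels to be set side by side between genes, NEO1 led in DMSO at 27.4 CPM per kb, followed by PLXNC1 at 12.2, PLXNA1 at 10.0, PLXNB2 at 8.98, EFNA4 at 7.82 and ROBO1 at 7.48. With panobinostat at 20 h the order was EFNA4 at 25.5, ROBO1 at 18.8, SEMA6C at 12.8, EFNA3 at 12.0, NEO1 at 11.6 and PLXNA1 at 8.84 CPM per kb. With romidepsin at 20 h ROBO1 at 22.6 and EFNA4 at 22.5 CPM per kb did not differ beyond the spread of their libraries, and NEO1 at 19.9, EFNA3 at 12.2, EFNB1 at 8.92 and EFNB2 at 8.62 followed. The leading members in DMSO were thus mostly receptors, and ephrins, ROBO1 and NEO1 filled the first ranks with romidepsin. With ricolinostat at 20 h NEO1 led again, at 27.2 CPM per kb, then ROBO1 at 11.1 and PLXNC1 at 9.79.

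Changes at 20 h differed by the level in DMSO. Of 12 members at 10 CPM or more in DMSO, 3 rose and 9 fell with panobinostat, where 30.3% of all genes of that level rose and 58.7% fell. Of 17 members at 1 to 10 CPM, 11 rose and 2 fell (all such genes 41.6% and 28.5%), and of 20 above the silent level but below 1 CPM, 16 rose and 0 fell (39.4% and 7.50%). With romidepsin the counts were 4 and 8 of 12 (all such genes 29.4% and 56.7%), 12 and 2 of 17 (40.8% and 24.5%) and 16 and 0 of 20 (35.3% and 4.94%). The DMSO libraries enter both the level and the change here, so level and change are not independent. Members below 1 CPM with too few DMSO counts for the filter passed it through treated groups, which favours rises among them. Between 5 and 20 h, which does not use DMSO for the change, 1 of the 12 rose and 9 fell with panobinostat (all such genes 24.5% and 54.6%), and 4 rose and 5 fell with romidepsin (30.0% and 53.1%). Of the 20 below 1 CPM, 13 rose and 1 fell between those times with panobinostat (22.2% and 5.69%), and 15 rose and 1 fell with romidepsin (27.3% and 6.70%).

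**Figure D4:**
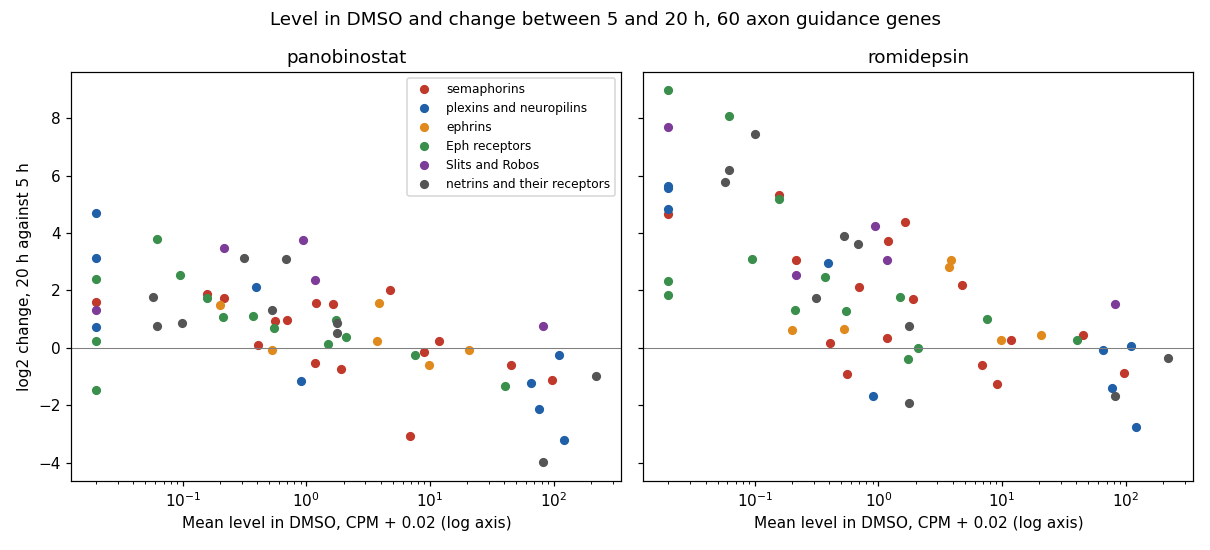
log2 change from 5 to 20 h (y axis) by mean level in DMSO (CPM + 0.02, log axis) for the 60 tested members, with a panel each for panobinostat and romidepsin and colours for families. Members at 10 CPM or more in DMSO lie mostly below 0 with panobinostat, where 9 of 12 fell, and fitted changes of members with 0 counts at 5 h depend on a prior count.

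From 5 to 20 h, 26 members rose and 13 fell with panobinostat (all genes 27.5% and 28.9%), and 40 rose and 9 fell with romidepsin (all genes 33.4% and 29.4%). These comparisons share no library, and 35 of the 60 members were called in both (58.3%, against 44.8% of all genes). Of the 35, 31 moved the same way (88.6%, against 87.7% of all genes called in both), while EPHB2, EFNA4, SEMA4A and SEMA4B fell with panobinostat and rose with romidepsin. With ricolinostat, 9 rose and 11 fell from 5 to 20 h (all genes 17.2% and 20.7%). Without the silent members, the counts were 20 and 13 with panobinostat (genes above the floor 25.0% and 31.8%) and 30 and 9 with romidepsin (30.0% and 32.4%).

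**Figure D5:**
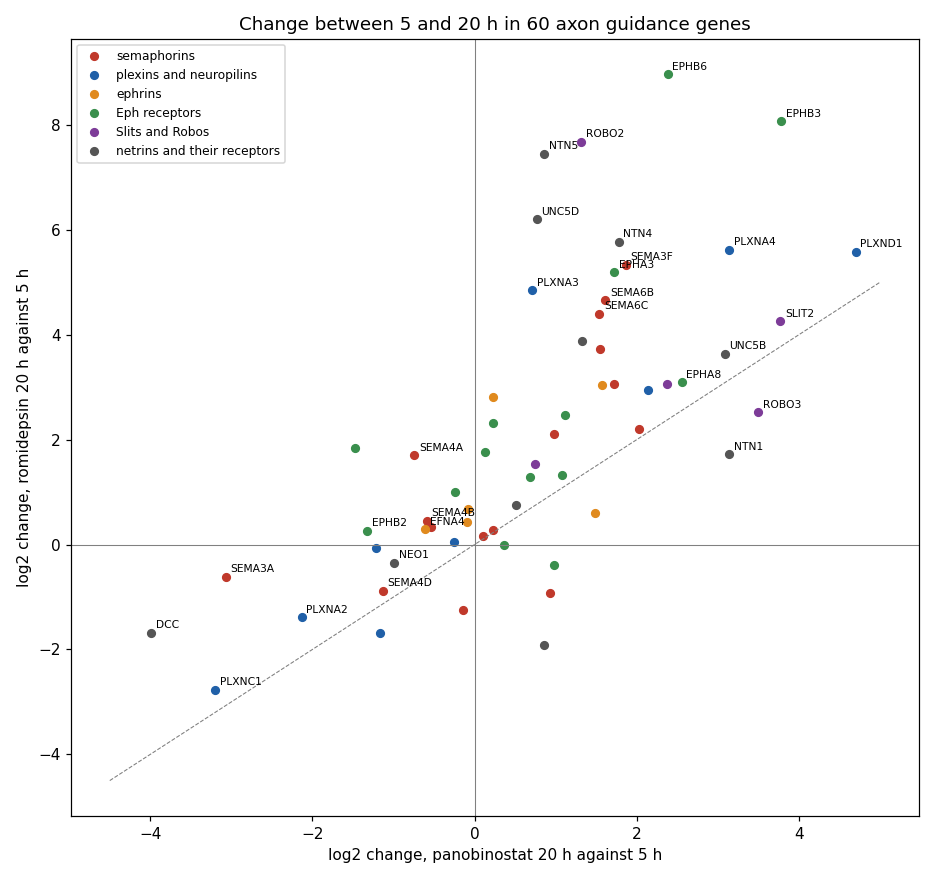
log2 change from 5 to 20 h with romidepsin (y axis) against the same change with panobinostat (x axis) for the 60 tested members, coloured by family, with a dashed line where both are equal. EPHB2, EFNA4, SEMA4A and SEMA4B fell with panobinostat and rose with romidepsin (other points of the upper left quadrant were not called in both), and fitted values of members with 0 counts at 5 h (EPHB3, EPHB6, ROBO2, NTN5, UNC5D, PLXNA4 and PLXND1 with romidepsin) depend on a prior count.

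Romidepsin and panobinostat were used at the same dose and could be tested directly, as 1 pair at 3 times with p-values adjusted over all genes. At 2 h, 6 members were higher and 10 lower with romidepsin (all genes 17.3% and 19.8%), at 5 h 9 were higher and 31 lower (24.8% and 25.9%), and at 20 h 18 were higher and 12 lower (23.4% and 18.3%). These counts include silent members. Of all tested genes silent in DMSO, 0.86% were higher and 27.9% lower with romidepsin at 5 h, and 3.24% and 17.8% at 20 h. At 5 h, 5 of 29 tested ligands were higher and 16 lower with romidepsin, and of 31 receptors 4 were higher and 15 lower. At 5 h SEMA6C had 2.25 and 2.36 CPM with romidepsin, against 22.9 and 28.0 CPM with panobinostat, a log2 difference of -3.47 ± 0.168 (edgeR adjusted p = 2.5e-40). EFNA3 had 3.87 and 2.69 CPM with romidepsin at 5 h, against 19.9 and 19.3 CPM with panobinostat (-2.56 ± 0.169, adjusted p = 1.7e-27).

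At 20 h several of the large rises did not pass the test of the difference between romidepsin and panobinostat. The log2 difference was -0.00 for SEMA6B (95% interval -0.384 to 0.374), 0.01 for SLIT1 (-0.406 to 0.43), 0.03 for EFNA3 (-0.214 to 0.266), -0.06 for NTNG2 (-0.561 to 0.447) and 0.20 for EFNB2 (-0.0132 to 0.411). These intervals limit the differences without showing that the compounds act alike. Others did differ: SEMA6C was lower with romidepsin by -0.61 ± 0.0905 (edgeR adjusted p = 7.6e-09) and SLIT2 by -0.69 ± 0.182 (adjusted p = 0.00095). Of the 8 members that fell with both, PLXNA1 was lower with romidepsin than with panobinostat and the other 7 were higher, among them DCC by a log2 difference of 2.31 ± 0.109 (adjusted p = 1.3e-36), PLXNC1 by 1.48 ± 0.0981 (adjusted p = 1.7e-26), PLXNA2 by 1.34 ± 0.0822 (adjusted p = 1.5e-28), NEO1 by 0.78 ± 0.0456 (adjusted p = 2.5e-29) and SEMA4D by 0.59 ± 0.0655 (adjusted p = 1.6e-13). Of all genes at 10 CPM or more in DMSO, 42.9% were higher and 27.2% lower with romidepsin than with panobinostat at 20 h. The matching share over all genes that fell with both was not counted.

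Ricolinostat was used at another dose, so its values are given beside those of the other 2 and were not compared with them. With ricolinostat, 8 members rose at both 2 and 5 h and not at 20 h, among them EFNA3, EFNA4, EFNB1 and EPHB2. Of all genes tested, 16.9% rose at 2 h, 18.8% at 5 h and 14.7% at 20 h. The share of all genes with the same time pattern was not counted, and counts at 2 h moved with single libraries, as given above. EFNA3 had 7.56 and 6.83 CPM at 2 h, 6.42 and 6.41 CPM at 5 h and 3.81 and 5.17 CPM at 20 h with ricolinostat, against 3.51 and 3.91 CPM with DMSO. The 20 h libraries overlapped DMSO (edgeR adjusted p = 0.30). SEMA6C and ROBO1 rose at 5 and 20 h instead. SEMA6C had 4.15 and 4.77 CPM at 5 h and 4.28 and 5.3 CPM at 20 h, against 1.74 and 1.49 CPM with DMSO, a log2 change of 1.57 ± 0.206 at 20 h (adjusted p = 7.2e-11). Among members above the silent level, 8 rose and 6 fell at 2 h (genes above the floor 18.3% and 16.1%), 15 and 6 at 5 h (20.1% and 16.9%), and 6 and 5 at 20 h (15.4% and 18.1%).

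The signalling proteins that act below these receptors were taken from a list of 56 genes, of which 51 were tested. With panobinostat at 20 h 26 rose and 21 fell (all genes 40.8% and 32.3%), with romidepsin 25 rose and 17 fell (38.6% and 29.9%), and with ricolinostat 12 rose and 10 fell (14.7% and 16.4%). Of the 51, 2 were silent in DMSO, and both rose with panobinostat and romidepsin. Scaled by total counts alone, the splits were 31 and 15 with panobinostat and 20 and 5 with ricolinostat. RND1, a small GTPase that binds plexins, had 23.7 and 25.6 CPM with panobinostat at 20 h and 8.15 and 10.0 CPM with romidepsin, against 0.762 and 1.57 CPM with DMSO. It rose by a log2 of 4.38 ± 0.249 (edgeR adjusted p = 2.6e-35) and 2.94 ± 0.256 (adjusted p = 2.1e-21), panobinostat first. RRAS, the small GTPase that plexins inactivate, had 54.7 and 55.6 CPM with panobinostat at 20 h and 44.1 and 41.5 CPM with romidepsin, against 5.46 and 5.29 CPM with DMSO.

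SH2D3C, an adaptor that binds Eph receptors, had 9.74 and 11.1 CPM with panobinostat at 20 h and 9.66 and 6.71 CPM with romidepsin, against 0.551 and 0.522 CPM with DMSO. DOCK4, an exchange factor for RAC1, had 46.8 and 51.7 CPM with panobinostat at 20 h and 56.7 and 60.7 CPM with romidepsin, against 5.59 and 4.7 CPM with DMSO. MICAL2, an actin-oxidising enzyme, had 14.3 and 17.0 CPM with panobinostat at 20 h and 8.27 and 6.97 CPM with romidepsin, against 2.63 and 2.31 CPM with DMSO. All of these treated libraries lay above DMSO. PAK1, a kinase activated by RAC1 and CDC42, went the other way, at 17.8 and 20.8 CPM with panobinostat at 20 h and 80.9 and 83.8 CPM with romidepsin, against 267 and 253 CPM with DMSO. It fell by 3.74 ± 0.058 on the log2 scale with panobinostat (edgeR adjusted p = 2.8e-80) and by 1.66 ± 0.0476 with romidepsin (adjusted p = 1.4e-54).

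A second list held 39 other guidance ligands and co-receptors, such as RGM, draxin and cell adhesion proteins, of which 25 were tested. At 20 h 17 rose and 3 fell with panobinostat (all genes 40.8% and 32.3%), 17 rose and 3 fell with romidepsin (38.6% and 29.9%), and 9 rose and 2 fell with ricolinostat (14.7% and 16.4%). Of the 25, 5 were silent in DMSO, and the other 20 held 13, 13 and 7 of those that rose, in the same order. Of all genes above the silent level, 35.6%, 33.8% and 15.4% rose. CDON and L1CAM, both with higher levels at 20 h, were named by no rule, and none of the genes that fell is named. CDON, a co-receptor of hedgehog and netrin signalling, averaged 118 CPM with panobinostat at 20 h and 92.9 CPM with romidepsin, against 26.3 CPM with DMSO. It rose by a log2 of 2.16 ± 0.0708 (edgeR adjusted p = 4.8e-50) and 1.82 ± 0.0718 (adjusted p = 3.7e-43), panobinostat first. L1CAM, a neurite adhesion protein, averaged 11.5 CPM with panobinostat at 20 h and 3.84 CPM with romidepsin, against 0 counts with DMSO, so that it was at least 194-fold and at least 65.1-fold higher.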

How the data were processed

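RNA-seq of 20 libraries from OPM2 cells was analysed from a table of raw counts per gene that the authors deposited. Per the submitters' processing notes, HISAT2, SAMtools and featureCounts were used on GRCh38. No source used here names the gene annotation, how strand was treated, or if single reads or read pairs were counted. Libraries were grouped by the labels, with 2 per group and 17264640 to 29088868 counts each. Symbols came from a supplied name table, and gene types, exon lengths and overlaps from the GENCODE annotation for GRCh38.

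The deposited counts were fitted with edgeR 4.0.16 in R 4.3.3 (filterByExpr with a minimum count of 10, TMM, robust dispersion, quasi-likelihood F tests, 1 mean per group). p-values were adjusted by Benjamini-Hochberg over the 20957 genes tested, with a threshold of 0.05. The biological coefficient of variation was 0.0419. The fit was tested on simulated data with the same dispersion for all genes and levels set to means over all libraries. Changes were placed only in genes with an expected count of at least 10. That test therefore does not cover members at or near 0 counts in DMSO. Levels are CPM over TMM-scaled library sizes. Where a group had 0 counts, a bound was set from 3 counts over its 2 libraries. Intervals of ratios are 95% counting intervals, which cover counting error only, and those of log2 differences are the change with 1.96 standard errors on either side.

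Alternatives were DESeq2 1.42.0, its size factors within edgeR, library totals without TMM, no count filter, a replicate block, leaving out each library, and UNC50 counted as a member (added after seeing the data). Named by rule were, per family, up to 5 members with the greatest called change against DMSO and at least 1 CPM in a group, plus members at 10 CPM or more in DMSO, and up to 6 signalling genes with at least 5 CPM. The members, lists and rules were chosen with earlier results of these data known. No 2 libraries were duplicates within sampling noise. p-values measure the spread between the 2 libraries of a group, pooled over groups.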

Additional observations from a re-analysis of the deposited data

Results flagged for a closer look

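A few members were called in both of 2 groups but with opposite signs, and the difference itself was tested with edgeR in each case. With romidepsin against panobinostat at 20 h, EPHB2 differed by a log2 of 1.10 (0.62 with romidepsin and -0.48 with panobinostat, each against DMSO), SEMA3A by 2.96 (1.03 and -1.93) and SEMA4B by 0.79 (0.37 and -0.43). SEMA3G was the reverse case, at -1.20 at 20 h (-0.64 with romidepsin and 0.55 with panobinostat) and -1.25 at 5 h (-0.93 and 0.32).

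Between 20 and 5 h of panobinostat, EPHB2 differed by -1.32 (-0.48 at 20 h and 0.84 at 5 h), PLXNB2 by -1.22 (-0.41 and 0.81) and SEMA3A by -3.07 (-1.93 and 1.14). Between 20 and 5 h of ricolinostat, EPHB2 differed by -1.22 (-0.43 at 20 h and 0.79 at 5 h) and PLXNA2 by -0.51 (-0.22 and 0.28). These contrasts share the DMSO libraries, and SEMA3A was chosen after its values were seen. With libraries scaled by total counts alone, the falls of PLXNB2 and SEMA4B with panobinostat at 20 h were not called, as given above. The SEMA3G rise at 5 h with panobinostat lost its call when single libraries were left out, among them DMSO replicate 2 (0.26, adjusted p = 0.19).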

How the results depend on the processing

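Counts of members and signalling genes called in either direction kept within 1.5 times under every alternative other than these for romidepsin at 2 h, while counts in 1 direction moved further where the report gives them: members called were 4 in the reported fit and 2 with no count filter, and leaving out single libraries gave 1 to 4 members called, 0 to 1 called and at least 2-fold, and 4 to 12 signalling genes called. Across single libraries left out, members called at 20 h ranged from 48 to 53 with panobinostat, 47 to 53 with romidepsin and 12 to 14 with ricolinostat. Among gene-level results called in the reported fit or in the alternative, the sign was not kept in 5. Results called in neither fit were not checked for their sign. Library totals alone turned NEO1 with romidepsin at 5 h (0.017), PLXNA1 with panobinostat at 20 h (0.13) and PLXNB2 with romidepsin at 20 h (0.086). Without panobinostat 2 h replicate 1, the SEMA6B change with panobinostat at 2 h was lost and not turned (0.00, and up to 5.78 without replicate 2). EPHB4 with ricolinostat at 5 h turned without DMSO replicate 2 (3.46, against -0.96 without DMSO replicate 1). The cause was not tested. Library totals alone moved the median of all genes from 0.25 to 0.56 with panobinostat at 20 h and from 0.22 to 0.46 with romidepsin. Signalling splits under that scaling were 27 and 11 with panobinostat at 5 h and 20 and 4 with romidepsin at 5 h. The replicate numbers did not pair the libraries: correlations of deviations ran from -0.0248 to 0.0347, and 0 of 45 were over 0.1. With the replicate block, 25 members were called with panobinostat at 2 h, 41 at 5 h and 52 at 20 h, and of 918 gene-level results 3 lost and 2 gained their call. Counting UNC50 as a member moved no count beyond 1.5 times. Members near 0 counts in DMSO are limited by depth, and DESeq2 did not call PLXND1 or PLXNA4 at 20 h.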
